A study of Oryza sativa with 4 samples.

Results

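The 8 rice genes described here encode dehydrins and other late embryogenesis abundant (LEA) proteins, taken by locus identifier from the 91960 features of the count table. They are RAB16A (OS11G0454300), RAB16B (OS11G0454200), RAB16C (OS11G0454000) and RAB16D (OS11G0453900), a tandem cluster on chromosome 11, with LEA3 (OS05G0542500), DHN1 (OS02G0669100), LEA3-2 (OS03G0322900) and WSI18 (OS01G0705200). RNA was sequenced from seedlings of japonica rice (Oryza sativa) that were 7 days old and kept in days of 14 h light and 10 h dark. Wild type was the line SN9816 and the mutant was bta1-1, each with 2 biological replicates, and the labels name no treatment for either. BTA1 is taken here to be LAZY1, a gene that keeps rice tillers upright, although the labels do not state this. The labels give bta1-1 as 1 mutant line without its background, so an effect of the mutation and other differences between the lines cannot be told apart. The set was proposed with these data in view, so the members count as chosen by their reads and FPKM in bta1-1 against wild type, and those differences are given as a description, without p-values.

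LEA proteins are small hydrophilic proteins that accumulate in maturing seeds and in vegetative tissue that loses water, where they are thought to protect membranes and enzymes. Dehydrins are the LEA group with a conserved lysine-rich segment. RAB16 genes take their name from their response to abscisic acid, the hormone of water deficit. That hormone is bound by PYL receptors, which inhibit PP2C phosphatases and so free SAPK kinases, and these activate bZIP factors that bind the promoters of genes such as RAB16A.

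The libraries held 20334851 and 15093108 counted reads (wild type 1 and 2) and 17332067 and 17365812 (bta1-1 1 and 2). Reads of LAZY1 (OS11G0490600) numbered 767 and 461 in wild type 1 and 2 and 70 and 89 in bta1-1 1 and 2, so this gene was reduced but present in both mutant libraries. Counts were scaled to CPM by the reads of the tested genes in each library, adjusted by a TMM normalization factor. The authors' FPKM, which divides by total counted reads and gene length, is used to compare genes with each other. In bulk seedling RNA fewer cells of a type and less RNA per cell cannot be told apart. Marker genes of leaf, root and seed were listed to see which tissues the RNA held. Summed over 5 leaf genes, the level was 15416 and 23250 CPM in wild type 1 and 2 and 28465 and 14038 CPM in bta1-1 1 and 2, so the leaf level differed within both groups. RBCS4, a Rubisco small subunit gene with the smallest p of the 5, had 824 and 1525 CPM in wild type and 862 and 284 CPM in bta1-1 (edgeR adjusted p = 0.386). RBCS4 was called lower without bta1-1 library 1 (log2 fold change -2.05, adjusted p = 0.0166, against -1.04 with all libraries) and without a filter on low counts (adjusted p = 0.0379), and the adjusted p was 0.292 to 0.952 without each other library. Summed over 5 root genes it was 1022 and 688 CPM in wild type against 642 and 846 CPM in bta1-1. NAS2, a nicotianamine synthase gene with the smallest p of these 5, had 423 and 362 CPM against 286 and 333 CPM (edgeR adjusted p = 0.635). With all libraries, the main edgeR fit and DESeq2 called 0 genes in either list. In the main fit 0 had an unadjusted edgeR p under 0.05. With replicates paired crosswise as a block, chosen after seeing the data, edgeR called RBCS4 lower (log2 fold change -1.18, adjusted p = 0.0152). Of 7 seed genes, the glutelin, oleosin and PER1 loci, which mark stored reserves and the mature embryo, reached no more than 12 reads per library, and 2 of the 7 had no read at all. The seed list also held EM1, which was called lower and is described below, and RAMY1A, which was not called. RAMY1A lay at 0.577 and 0.628 CPM in wild type 1 and 2, at 0.420 CPM in bta1-1 1 and at 2.82 CPM in bta1-1 2. The seed list was therefore neither free of reads nor even across the libraries.

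In wild type the 8 genes spanned a wide range of levels. DHN1, an abundant acidic dehydrin also named LIP9, stood first at 1033 ± 223 FPKM (SD, n = 2, as for all means here). LEA3-2, an LEA protein induced by abscisic acid, followed at 109.7 ± 13.3 FPKM. WSI18, an LEA protein named for its induction by water stress, and RAB16A lay next at 31.7 ± 8.08 and 27.8 ± 2.71 FPKM, and their libraries overlapped. RAB16B, LEA3 and RAB16C were lower, at 5.16 ± 0.844, 4.43 ± 2.17 and 3.18 ± 0.490 FPKM. LEA3 overlapped with both others, and RAB16B lay above RAB16C in both libraries. RAB16D, the remaining gene of the cluster, had no read in 3 libraries and 1 read in bta1-1 2. A count of 0 allows up to 3 reads, or 0.148 to 0.199 CPM in these libraries, so no fold is given for it.

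In bta1-1 the order was kept at its upper end. DHN1 stood at 282 ± 23.1, LEA3-2 at 58.5 ± 40.3 and WSI18 at 6.70 ± 1.79 FPKM. RAB16A, RAB16B and RAB16C, which differed in wild type, came to 0.936 ± 0.0563, 0.694 ± 0.0458 and 0.689 ± 0.461 FPKM. RAB16C overlapped there with both others, and RAB16A stayed above RAB16B in both libraries. LEA3 had the lowest FPKM of the detected genes, at 0.257 in each bta1-1 library. That place rests on 5 reads in each, and RAB16C also had 5 reads in bta1-1 1.

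**Figure D1:**
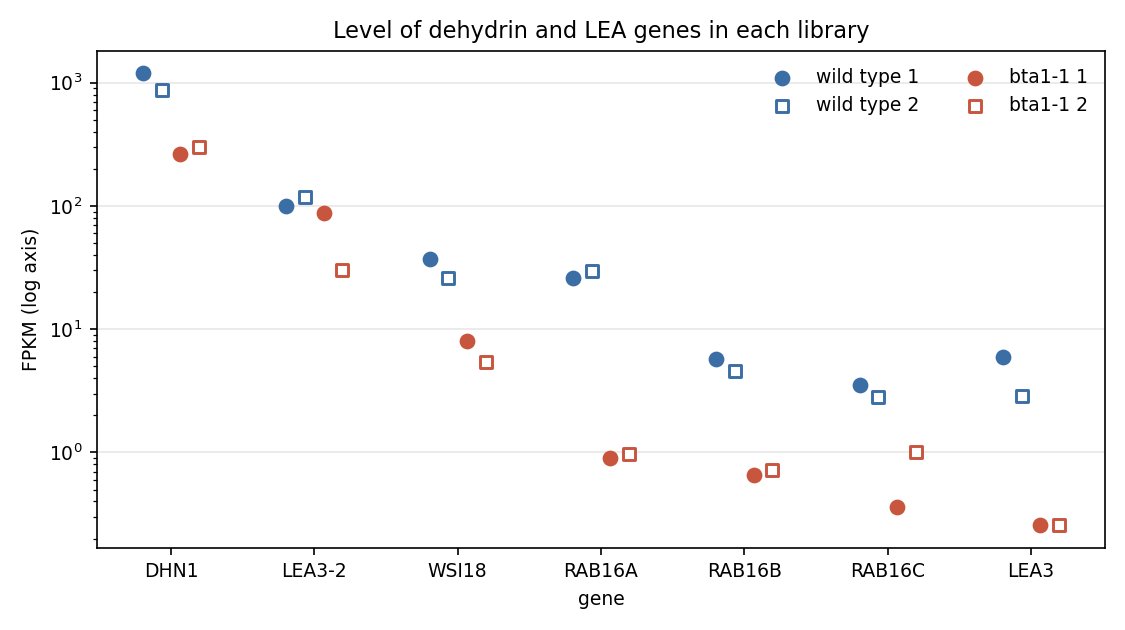
FPKM on a log axis for 7 genes in each of the 4 libraries (blue, wild type; red, bta1-1; circles, replicate 1; squares, replicate 2); RAB16D, with 1 read in all, is left out. Both wild type libraries lie above both bta1-1 libraries for each gene, and the groups come closest for LEA3-2, at 100.4 against 87 FPKM.

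Of the 8 genes 7 had enough reads to enter the fit across 24396 genes, and for each of the 7 both wild type libraries lay above both bta1-1 libraries in CPM, an arrangement found for 23.2% of all genes tested, against 23.7% for the opposite one. The fit placed 5 of the 7 below the threshold of an adjusted p of 0.05 as lower in bta1-1 (RAB16A, RAB16B, LEA3, DHN1 and WSI18), beside 2.64% of all genes tested. Since the genes were picked with this contrast known, nothing is read from these counts. LEA3 passed the filter on low counts through its wild type libraries alone and had to differ for that reason.

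RAB16A, the best studied dehydrin gene of the cluster, was read 372 and 317 times in wild type 1 and 2 and 11 and 12 times in bta1-1 1 and 2. In CPM these were 17.9 and 22.1 against 0.659 and 0.650. Both mutant libraries lay far below both wild type libraries, and the replicates of bta1-1 were nearly equal. The log2 fold change was -4.92 (SE 0.35), or 30.2-fold lower in bta1-1. The exact 95% Poisson intervals of 11 and 12 reads run from 5.49 to 19.7 and from 6.20 to 21.0 reads and cover counting error only.

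RAB16B and RAB16C, dehydrins of the same cluster, had lower wild type levels and smaller differences. RAB16B counted 102 and 60 wild type reads against 10 and 11 mutant reads, a log2 fold change of -2.92 (SE 0.45). RAB16C counted 57 and 34 wild type reads against 5 and 14 mutant reads, a log2 fold change of -2.25 (SE 0.55). The bta1-1 replicates of RAB16C differed by 1.34 (log2), more than those of any other of the 7 genes except LEA3-2. Leaving out bta1-1 library 1 gave -1.75 for RAB16C, and leaving out library 2 gave -3.03. The 4 genes are close copies, so reads shared between them may have been split or dropped in the authors' counting.

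The make-up of the cluster is a description of the same reads, in which RAB16A has the largest log2 fold change. RAB16A held 70.1% of the 531 reads of the cluster in wild type 1 (exact Clopper-Pearson 95% interval 66.0% to 73.9%) and 77.1% of 411 in wild type 2 (72.8% to 81.1%). It held 42.3% of 26 reads in bta1-1 1 (23.4% to 63.1%) and 31.6% of 38 in bta1-1 2 (17.5% to 48.7%). These intervals cover counting error only, and the mutant shares rest on few reads. Per length, RAB16A made up 73.6% and 80.0% of the summed FPKM of the cluster in wild type against 46.7% and 35.0% in bta1-1. The summed FPKM itself was 35.1 and 37.1 in wild type against 1.92 and 2.79 in bta1-1. RAB16C, at 10.7% and 8.27% of the reads in wild type, held 19.2% and 36.8% in bta1-1.

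**Figure D2:**
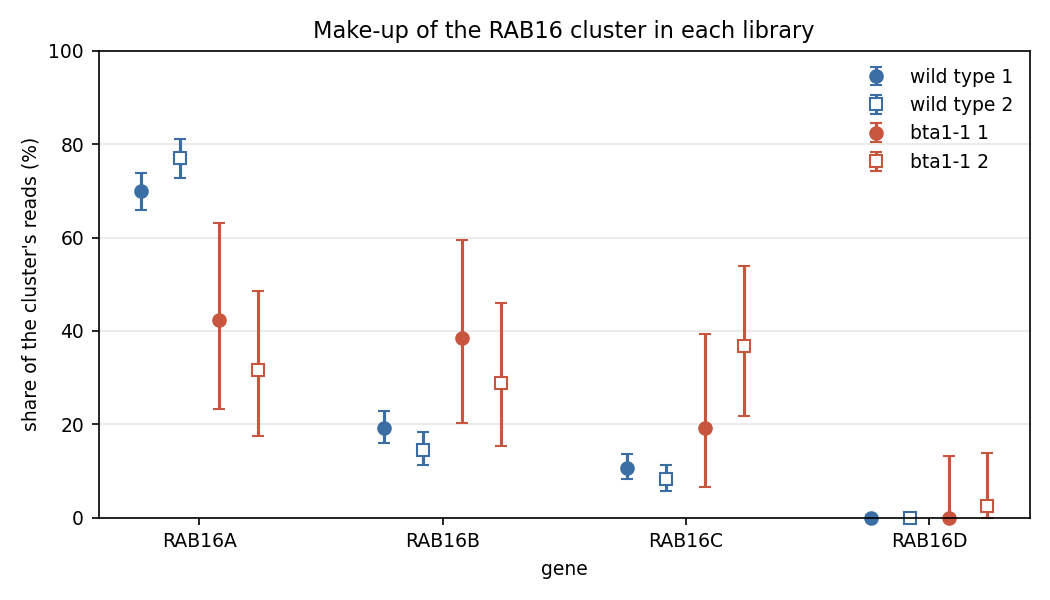
Share of the reads of the RAB16 cluster held by each gene (y axis, percent) in each library, with exact 95% binomial intervals (colours and symbols by library). RAB16A holds 70.1% and 77.1% in the wild type libraries and 42.3% and 31.6% in those of bta1-1, where only 26 and 38 reads carry the shares.

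LEA3, a group 3 LEA protein, counted 136 and 49 wild type reads against 5 in each bta1-1 library. In CPM these were 6.54 and 3.42 against 0.300 and 0.271, so the wild type replicates differed by 0.93 (log2) while both mutant libraries sat at the same low level. The log2 fold change was -4.10 (SE 0.56), or 17.2-fold lower. WSI18 counted 766 and 395 wild type reads against 139 and 95 mutant reads, or 36.8 and 27.6 CPM against 8.33 and 5.14 CPM. The groups were apart, with a log2 fold change of -2.26 (SE 0.31), or 4.79-fold lower.

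DHN1 counted 31268 and 17065 wild type reads against 5941 and 6685 mutant reads, or 1503 and 1191 CPM against 356 and 362 CPM. It ranked 55 and 101 by FPKM among all features in wild type 1 and 2, and 436 and 370 in bta1-1 1 and 2. Its log2 fold change was -1.91 (SE 0.33), or 3.75-fold lower, smaller than that of RAB16A or LEA3 on a level far above theirs.

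LEA3-2 stood apart from the other 6. It counted 2300 and 2026 wild type reads against 1699 and 588 mutant reads, or 111 and 141 CPM against 102 and 31.8 CPM. Library 1 of bta1-1 lay just under wild type and library 2 well under it, a difference of 1.68 (log2) between the mutant replicates. The log2 fold change was -0.91 (SE 0.47). It came to -0.28 when bta1-1 library 2 was left out and to -1.99 when library 1 was. The summed leaf markers were also lowest in bta1-1 library 2, and their part in this value was not tested.

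Other genes of water deficit, none of them among the 8, were compared in the same fit, by edgeR's quasi-likelihood test with Benjamini-Hochberg adjustment over all genes tested. The list was drawn up with earlier results of these data known, so its counts and median are a description. Of 23 genes tested, 6 were lower and 1 was higher, while 16 missed the threshold. The median log2 fold change was -0.20, beside -0.01 over all genes. In all genes 2.64% were called lower and 2.77% higher. For 10 of the 23 both wild type libraries lay above both of bta1-1, beside 23.2% of all genes tested. For 4 both lay below, beside 23.7% of all genes tested.

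The further LEA, dehydrin and ASR genes (abscisic acid, stress and ripening proteins) gave 3 lower of 9 tested and a median of -1.13. Over all genes tested 2.64% were called lower, with a median of -0.01. Of the 9 genes, 0 were higher by edgeR, also at an unadjusted edgeR p under 0.05, or by DESeq2. EM1 (OS05G0349800), an LEA protein of the embryo, fell from 222 and 86 reads in wild type to 23 and 10 reads in bta1-1 (log2 fold change -3.13, SE 0.53, adjusted p = 0.0146). Its log2 fold change was -3.93 when bta1-1 library 1 was left out and -2.56 when bta1-1 library 2 was. Without wild type library 1 or 2 it was -2.64 or -3.48. EM1 was also on the seed list, whose summed level without it was 0.961 and 0.977 CPM in wild type and 0.779 and 3.57 CPM in bta1-1. WSI724 (OS03G0655400), a transcript named for its induction by water stress, had a higher mean level per length than DHN1, at 1265 ± 40.5 FPKM in wild type and 348 ± 57.2 FPKM in bta1-1. In CPM it stood at 782 and 806 CPM in wild type and fell to 250 and 179 CPM in bta1-1 (log2 fold change -1.89, SE 0.32, adjusted p = 0.0141). The third was the ASR locus OS01G0959100, at 3.27 and 2.30 against 0.719 and 0.704 CPM (adjusted p = 0.0497). Its adjusted p was 0.216 and 0.057 without wild type library 1 or 2, and 0.0963 and 0.168 without bta1-1 library 1 or 2. The most abundant ASR locus, OS11G0167800, had 7287 ± 1712 CPM in wild type and 4207 ± 249 CPM in bta1-1 and was not called. RAB25, a dehydrin-like gene, had a log2 fold change of -1.13 and was not called.

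Among 14 tested genes of osmoprotectant synthesis and stress transcription factors, 3 were lower and 1 was higher, with a median of 0.07. Over all genes tested 2.64% were called lower and 2.77% higher, with a median of -0.01. WSI76 (OS07G0687900) and GOLS1 (OS03G0316200) are galactinol synthases, which start the synthesis of raffinose sugars. WSI76 fell from 211 and 135 CPM in wild type to 25.4 and 29.5 CPM in bta1-1 (log2 fold change -2.66, SE 0.30, adjusted p = 0.00191). GOLS1 fell from 446 and 271 to 69.8 and 102.5 CPM (log2 fold change -2.06, adjusted p = 0.0146). NAC10 (OS11G0126900), a NAC transcription factor, fell from 26.1 and 17.7 to 4.55 and 4.33 CPM (adjusted p = 0.00413). The groups of these 3 genes were apart, as they were for RAB16A.

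The 1 higher gene, chosen after its value was seen, was DREB1B (OS09G0522000), a transcription factor of the cold response, at 28.8 and 17.7 CPM in wild type and 129 and 70.4 CPM in bta1-1 (adjusted p = 0.0155). The other 10 genes of the list, among them the proline synthesis genes P5CS1 and P5CS2 and the NAC factors SNAC1, NAC5 and NAC6, had log2 fold changes from -0.60 to 0.92 and were not called.

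**Figure D3:**
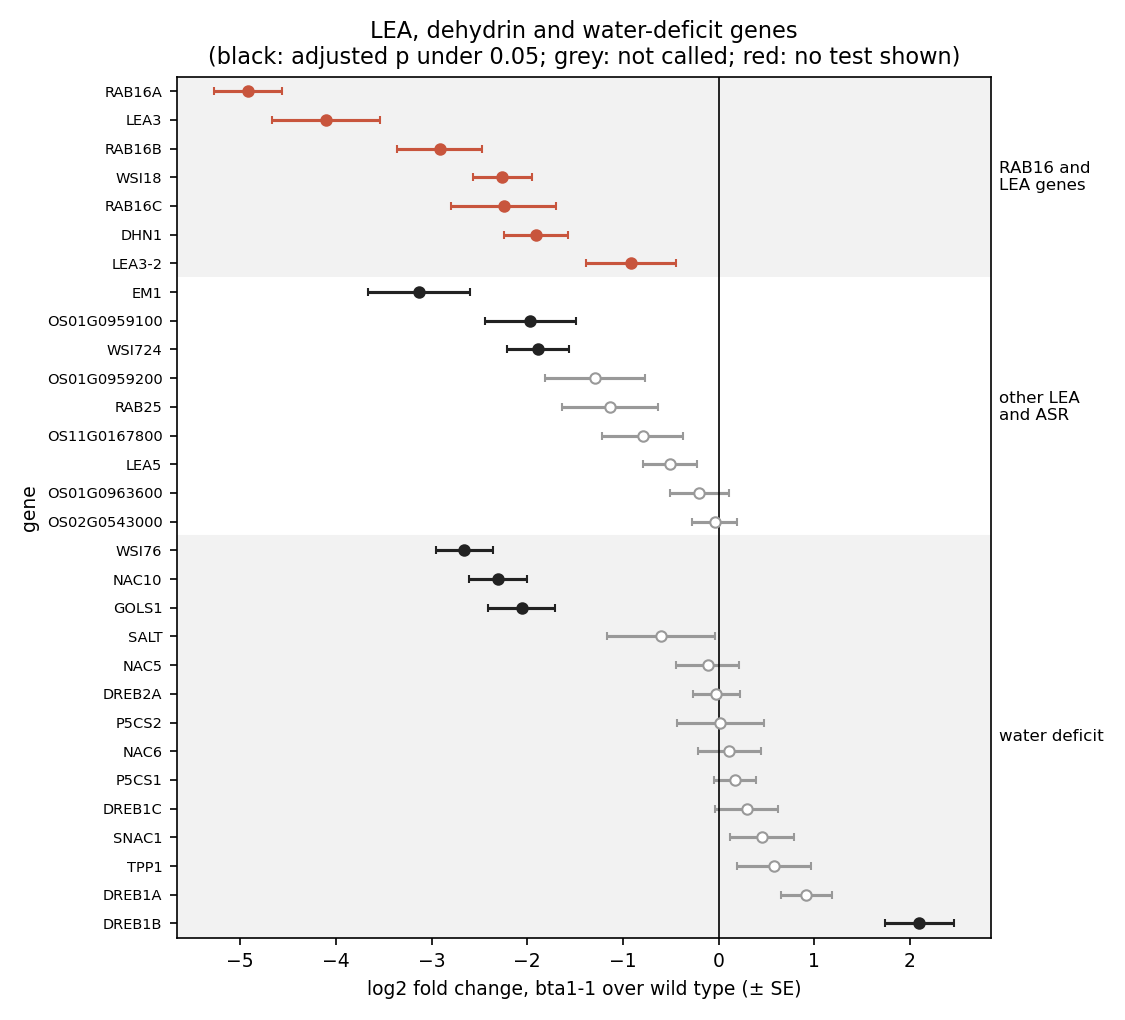
Log2 fold change of bta1-1 over wild type with its SE (x axis) for 7 of the 8 genes (red, described without a test), 9 further LEA and ASR genes and 14 water-deficit genes (black, adjusted p under 0.05; grey, not called). EM1, WSI724 and the galactinol synthases WSI76 and GOLS1 lie on the same side as the red points, and DREB1B lies at 2.10 on the other side.

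Genes that make, sense and transmit abscisic acid were listed by role. This list too was drawn up with earlier results of these data known, so its counts and medians are a description. Of 37 tested, 7 were lower, 0 higher and 30 not called. The median log2 fold change was -0.48, beside -0.01 over all genes. Of all genes tested, 2.64% were called lower and 2.77% higher. The count of 0 higher was the same by DESeq2, and 2 genes were higher at an unadjusted edgeR p under 0.05. The count lower was 2 without wild type library 1.

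Group A PP2C phosphatases, which hold abscisic acid signalling in check and are themselves induced by the hormone, gave 5 of the 7 calls. Of 8 tested, 5 were lower and 3 were not called, with a median of -1.46, beside 2.64% of all genes tested called lower. In all 8 both wild type libraries lay above both of bta1-1, an arrangement found for 23.2% of all genes tested. PP2C09 fell from 77.3 and 43.0 CPM to 18.1 and 22.0 CPM (log2 fold change -1.59, SE 0.31, adjusted p = 0.0242). PP2C30 fell from 17.4 and 9.07 to 3.66 and 3.57 CPM (adjusted p = 0.0278). PP2C06 fell from 287 and 188 to 91.6 and 96.3 CPM (adjusted p = 0.0345). The other called genes, PP2C08 and PP2C37, had log2 fold changes of -1.83 and -2.05. The uncalled PP2C50, PP2C68 and PP2C53 had -1.05, -0.89 and -0.31.

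For all 5 called phosphatases wild type library 1 was the higher of its group. Without it 0 of the 8 were called by edgeR (5 at an unadjusted p under 0.05), with log2 fold changes of -1.10 for PP2C09, -1.33 for PP2C30 and -1.54 for PP2C08. The adjusted p of the 5 then ran from 0.059 for PP2C09 to 0.251 for PP2C37, with 0.149 for PP2C06. Without wild type library 2 the count was 6, without bta1-1 library 1 it was 4, where PP2C37 had adjusted p = 0.0881, and without bta1-1 library 2 it was 3. In the last case PP2C06, PP2C08 and PP2C37 had adjusted p = 0.0574, 0.147 and 0.0937 and PP2C50 was called.

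The remaining roles gave 2 calls, both lower, beside 2.64% of all genes tested called lower. ABA8OX2 (OS08G0472800), a hydroxylase that breaks down abscisic acid, fell from 10.5 and 12.3 to 2.28 and 2.11 CPM (log2 fold change -2.37, SE 0.33, adjusted p = 0.00577) as the 1 called of 9 genes of synthesis and breakdown. The synthesis genes NCED1, NCED2, NCED3, NCED4 and NCED5 were not called, with log2 fold changes from -1.56 (NCED5) to 0.96 (NCED2). Of the 9 genes, 2 were lower and 1 was higher at an unadjusted edgeR p under 0.05. SAPK9 (OS12G0586100), a kinase of the pathway, fell from 44.8 and 42.5 to 16.7 and 18.9 CPM (log2 fold change -1.29, SE 0.22, adjusted p = 0.0143) as the 1 called of 10 SAPK genes, the other 9 lying between -0.48 and 0.21.

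Receptors and bZIP factors held no call. Over all 24396 genes tested, 12469 had negative and 11927 had positive log2 fold changes, so nothing is read from the signs of these few genes. Of 4 tested receptors, 3 had positive values, and PYL6, with the smallest p, stood at 50.9 and 78.0 CPM in wild type and 125 and 91.7 CPM in bta1-1 (log2 fold change 0.75, adjusted p = 0.219). All 6 tested bZIP factors had negative values, from -0.90 (TRAB1) to -0.27 (BZIP46), and BZIP72, with the smallest p, went from 63.6 and 64.3 to 40.9 and 36.7 CPM (adjusted p = 0.109). At an unadjusted edgeR p under 0.05, 1 receptor was higher and 3 bZIP factors were lower, and DESeq2 called 0 in either list.

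**Figure D4:**
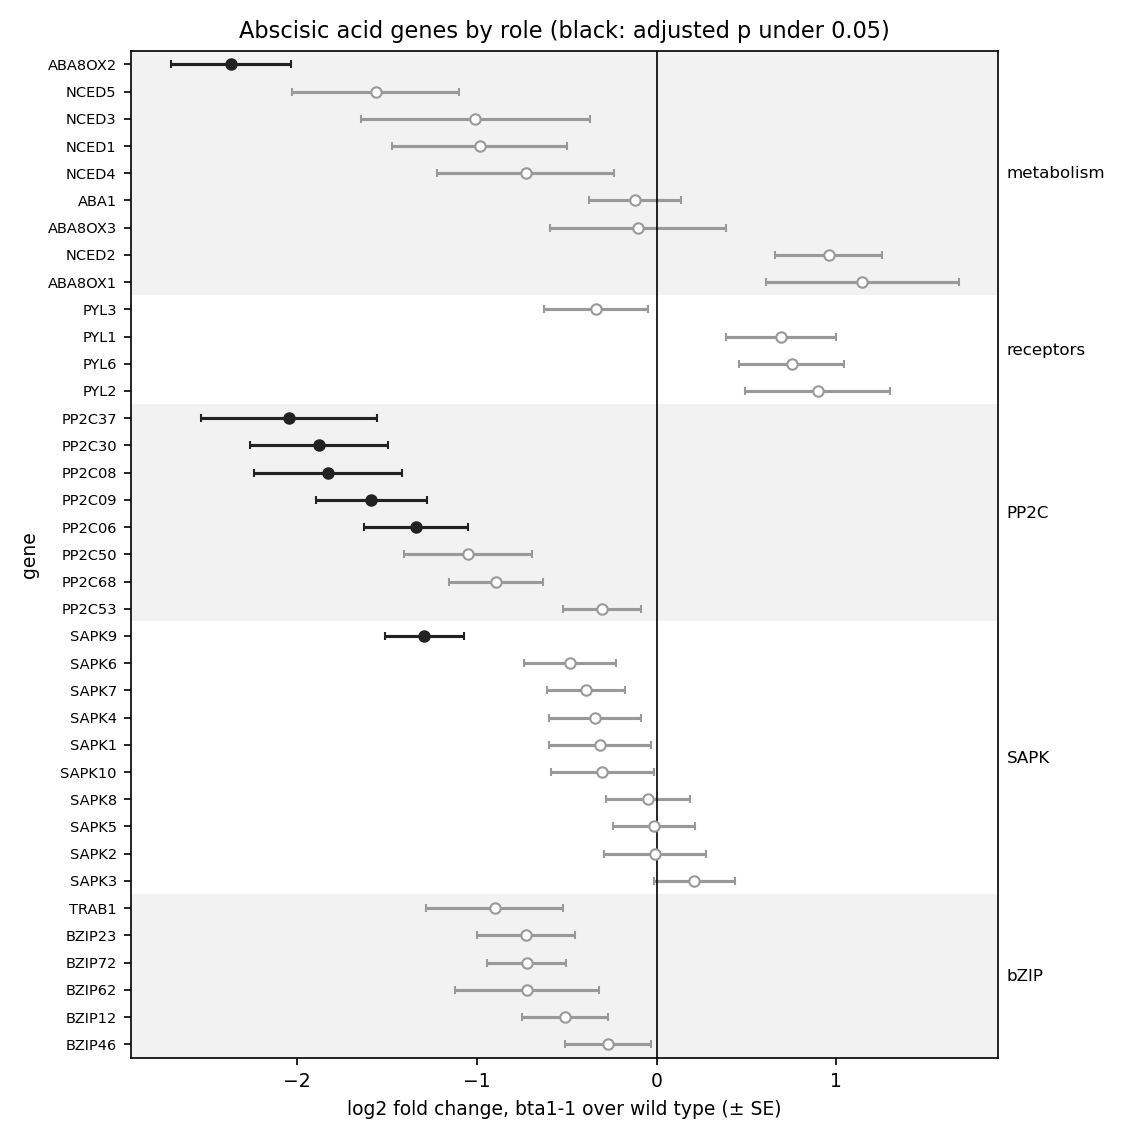
Log2 fold change of bta1-1 over wild type with its SE (x axis) for 37 abscisic acid genes in 5 roles (black, adjusted p under 0.05; grey, not called). The PP2C phosphatases hold 5 of the 7 called genes, and their values run from -2.05 to -0.31.

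The RAB16 cluster lies on the same chromosome as LAZY1, 123 listed loci away by identifier. In RefSeq's gene table, which uses a different rice assembly, RAB16D neighbours RAB16C and RAB16B neighbours RAB16A with no gene row between, and 2 rows (a noncoding RNA and a pseudogene) separate RAB16C from RAB16B. Of 21 further loci, the 10 on each side of the cluster and 1 inside it, 13 had enough reads to be tested. Of these 1 was lower and 0 higher by edgeR, beside 2.64% and 2.77% of all genes tested. The count of 0 higher was the same by DESeq2 and at an unadjusted edgeR p under 0.05. The other 12 tested loci lay between -0.30 and 0.91 (log2 fold change). The lower locus, OS11G0451700, counted 64 and 42 wild type reads against 2 and 1 mutant reads. Like LEA3, it passed the filter on low counts through its wild type libraries alone. It had to differ for that reason, so nothing is read from its call. It lies 4 listed loci before RAB16D. Its log2 fold change of -5.02 moved to -5.62 when bta1-1 library 1 was left out and to -4.54 when bta1-1 library 2 was. The sources used here give it no name.

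**Figure D5:**
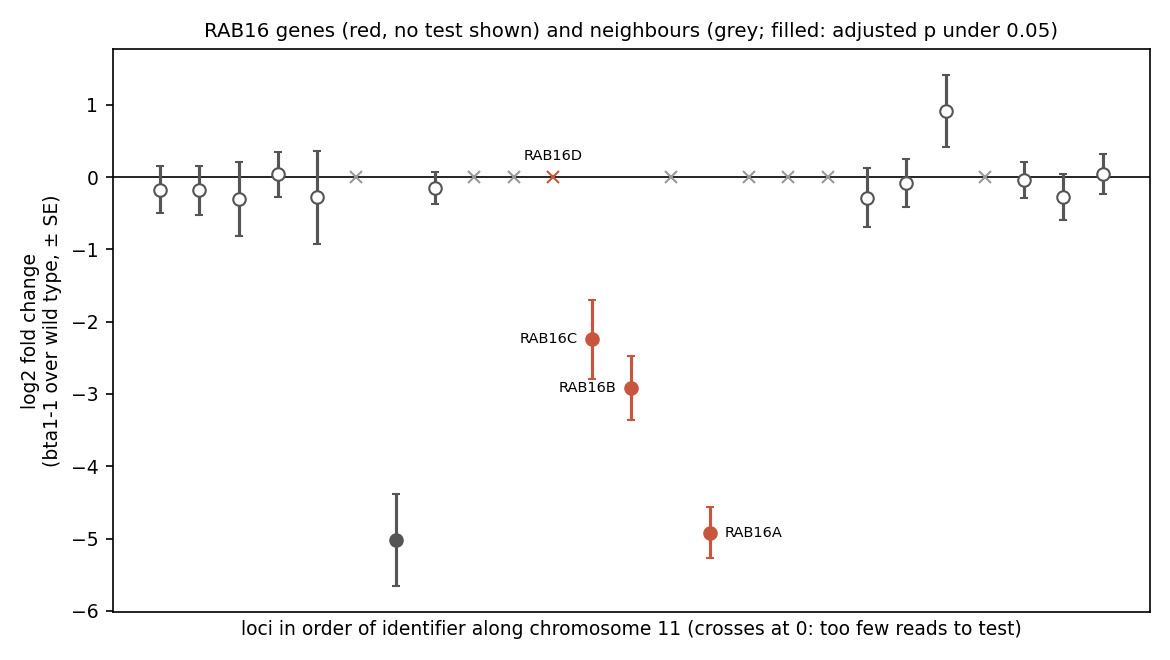
Log2 fold change of bta1-1 over wild type with its SE (y axis) for the RAB16 genes (red, described without a test) and 21 neighbouring loci (grey; filled where adjusted p is under 0.05) in the order of their identifiers along chromosome 11. RAB16C, RAB16B and RAB16A and 1 neighbour lie below -2, and the other tested neighbours lie between -0.30 and 0.91.

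The profile of RAB16A over the 4 libraries was set against all other genes tested, as the Euclidean distance between log2 CPM values centred on each gene's mean, with a prior count of 2 added before the log. The nearest were OS12G0117850, with 51 and 48 reads in wild type and 0 in both bta1-1 libraries, and OS04G0372201, with 246 and 189 against 7 and 6 reads. The third was OS12G0109600, with 44 and 48 against 0 and 0 reads. The other dehydrin and LEA genes were farther away, LEA3 the nearest of them, followed by RAB16B at 2.03 and ending with LEA3-2 at 3.76. Like LEA3, the genes OS12G0117850, OS04G0372201 and OS12G0109600 passed the filter on low counts through their wild type libraries alone. They had to differ for that reason. For the genes at 0 reads in bta1-1 the distance is also set in part by the prior count. The order of these nearest genes is therefore given without distances, and nothing is read from their match to RAB16A.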

How the data were processed

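Total RNA of seedlings was sequenced in 4 libraries, grouped by their labels. The authors deposited raw whole-number read counts for each gene, and FPKM values that the authors computed for the same genes. Counts divided by FPKM gave whole gene lengths (within 0.01 base) in 100% of 123342 values. HTSeq 0.6.1, TopHat2 2.0.12, Bowtie2 2.2.3 and build IRGSP-1.0 are listed, per the submitters' processing notes, with no role stated. No source used here states a strand setting, so overlapping genes cannot be told apart.

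The fit used edgeR 4.0.16 with R 4.3.3 (TMM, filterByExpr with a minimum count of 10 and total of 15, robust quasi-likelihood fit, 24396 genes, Benjamini-Hochberg, two-sided), checked on simulated data. SE is the log2 fold change over the square root of F. The alternatives used DESeq2 1.42.0 and limma 3.58.1. P-values measure the spread between these samples. The replicates were not copies (chi-square per degree of freedom 26.4 and 36.5).

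The 8 genes, the lists and the tests were chosen with earlier results of these data known. Names rest on locus identifiers; a RefSeq table (ASM3414082v1) held 51 of 90 listed pairs by symbol, chromosome and rough position, contradicted 1 (a receptor, dropped) and lacked 38. WSI18, EM1, WSI724, WSI76, GOLS1, NAC10, PP2C37, the ASR loci and most receptors are among the last. The text names the 8 genes, LAZY1, up to 3 called genes per list by p (else the 1 with the smallest p), called neighbours and the 3 nearest profiles. DREB1B, PP2C08, PP2C37 and uncalled genes beyond these were added after their values were seen.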

Additional observations from a re-analysis of the deposited data

How the results depend on the processing

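The log2 fold change of RAB16A ran from -5.07 to -3.89 over the 12 alternatives. These refit the libraries on which the 8 genes were chosen. Nothing is therefore read from how many of the 8 are called in any setting. Of the 8 dehydrin and LEA genes, 5 were called lower in the main fit, 5 to 6 when a library was left out, 7 without a filter on low counts, and 1 with limma on log2(FPKM + 1) when every gene with a value was kept. That setting gave 125 genes lower and 44 higher in all, 0 lower and 0 higher among other water-deficit genes, 0 lower among abscisic acid genes and 0 lower among the neighbours, and the cause was not tested. Over all genes the counts were 644 lower and 675 higher, with 1322 and 1582 without the filter, 1027 higher by DESeq2, and 482 to 854 lower and 401 (without wild type library 2) to 1202 (without bta1-1 library 1) higher with a library left out. Other water-deficit genes called higher were 1 in the main fit, 2 without the filter and 1 to 2 with a library left out. Abscisic acid genes called lower were 7 in the main fit and 2 to 8 with a library left out. The median of the neighbours, -0.18 in the main fit, ran from -0.25 to 0.07 with a library left out, turning to 0.074 without wild type library 2 and to 0.029 when bta1-1 library 2 was left out, and the cause was not tested.

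The labels do not say what the replicate numbers mark, and deviations of equal numbers from their group means correlated at -0.42. With the replicate number as a block, 415 genes were lower and 359 higher, 5 of the 8 genes were lower, and 3 abscisic acid genes (1 PP2C) were lower. With the pairing crossed, an alternative chosen after seeing the data, 1772 were lower and 1972 higher, with 12 lower and 2 higher abscisic acid genes and 2 higher water-deficit genes. Depth limits all 4 RAB16 genes and LEA3, with at most 14 reads each in a bta1-1 library. With 2 libraries per group, a gene that missed the threshold may still differ.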
